A study of Mus musculus with 99 samples.

Results

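Trh and Aoah are 2 of the 55341 gene names in the RNA count table of a study of Polycomb repression in mouse embryonic stem cells (ESCs). They were chosen by their RNA levels, which were much lower after OHT, the tamoxifen metabolite that switches on Cre, in Parental and in RING1B I53S cells. The levels in those lines are therefore given as a description with no test. Levels in RING1B WT and Eed fl/fl cells, and the chromatin peaks at both genes, were not used to choose them.

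The Parental line is RING1A-/-; RING1B fl/fl with creERT2 at ROSA26, so that OHT leaves it without either catalytic RING1 protein. The RING1B WT and RING1B I53S lines are stable clones of it, selected with puromycin, that carry a 2xFlag-HA-tagged transgene under pCAG encoding either the normal protein or one that cannot ubiquitinate H2A. All 6 groups of these lines lack RING1A, the untreated ones included. The Eed fl/fl ESCs carry the same creERT2 and lose EED, a core subunit of PRC2, with RING1A and RING1B left in place. Cells in 2i/LIF medium received 0.5 µM OHT (+OHT) or the ethanol vehicle (-OHT) for 72 h, and each of the 8 groups had 2 RNA-seq libraries. Peak lists came from 70 ChIP-seq libraries for 12 antibodies and from 4 inputs. They cover the Parental line, its clones with a transgene and MTF2 KO clones, but not Eed fl/fl cells. For MTF2 and JARID2, the 70 include +OHT lists made after 48 h as well as 72 h. They also include an RYBP list whose title leaves its line and treatment unclear.

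Trh encodes the precursor of thyrotropin-releasing hormone, a peptide that hypothalamic neurons release to drive thyrotropin secretion from the pituitary. Aoah encodes acyloxyacyl hydrolase, an enzyme of macrophages and dendritic cells that removes the secondary fatty acids of bacterial lipopolysaccharide and so inactivates it. PRC1 places ubiquitin on histone H2A (the mark H2AK119ub1) through RING1A or RING1B, and PRC2 methylates histone H3 (the mark H3K27me3). Both marks lie mostly at CpG-rich promoters of silent developmental genes, whose RNA is usually higher when they are lost.

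On GRCm38, Trh (ENSMUSG00000005892.4) spans chr6:92242061-92244650 on the minus strand, 2590 bp with 1 annotated start site and 3 exons. Aoah (ENSMUSG00000021322.8) spans chr13:20794113-21036617 on the plus strand, 242505 bp with 4 annotated start sites. The 250 bases before each start site (RefSeq, GRCm38.p6) are shown because the genes differ there in CpG content, the promoter feature that Polycomb occupancy follows. They are written 5′ to 3′ on the gene's own strand, with every CG dinucleotide in capitals. The Trh stretch is chr6:92244651-92244900 and the Aoah stretch is chr13:20793863-20794112.
Trh: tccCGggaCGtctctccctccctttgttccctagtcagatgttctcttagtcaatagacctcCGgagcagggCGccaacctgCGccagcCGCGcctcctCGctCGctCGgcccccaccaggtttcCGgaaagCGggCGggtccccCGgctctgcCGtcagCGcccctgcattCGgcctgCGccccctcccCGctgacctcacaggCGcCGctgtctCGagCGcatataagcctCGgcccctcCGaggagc
Aoah: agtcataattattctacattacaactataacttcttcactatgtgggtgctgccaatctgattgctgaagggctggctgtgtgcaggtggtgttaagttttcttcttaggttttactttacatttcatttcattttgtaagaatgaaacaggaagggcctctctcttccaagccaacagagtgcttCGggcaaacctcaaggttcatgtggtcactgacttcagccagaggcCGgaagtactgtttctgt

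The Trh stretch holds 25 CG dinucleotides at 68.8% GC, an observed-to-expected CpG ratio of 0.90. The Aoah stretch holds 2 at 42.8% GC, a ratio of 0.18. Over the 32851 promoters of 27025 genes in the RefSeq table, the median is 6 CG dinucleotides at 52.4% GC, and 89.3% of promoters have fewer than Trh while 18.8% have fewer than Aoah. Trh thus starts in CpG-rich sequence and Aoah in CpG-poor sequence.

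Both strands were searched for a few short motifs. TATAA, the core of a TATA element, is found in 22.8% of promoters and begins at position -26 from the Trh start site, but at -225 from that of Aoah. AGGTCA, a core sequence bound by nuclear receptors, is found in 14% and occurs in the Trh stretch only, at -57. CCGGAA, the core bound by ETS factors, is found in 12% and occurs in both, in Trh as 1 palindromic stretch that matches on either strand. GGGCGG, the GC box, is found in 32.7% and occurs 1 time in Trh and not in Aoah. CACGTG, TGACGTCA, ATGCAAAT and TTCNNNGAA are in neither window. A match is a run of letters and no evidence of binding.

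Library depth was 8140106 to 12743460 counts in the 12 libraries of the Parental line and its rescue clones and 6957248 to 9443814 in the 4 Eed fl/fl libraries. Levels are counts scaled to library size with TMM factors (CPM), or RPKM where genes are compared per length, and errors are SD with n = 2. Counts are summed over whole genes, which does not measure the floxed exons alone. Rnf2, which encodes RING1B, went from 227 ± 41.5 to 155 ± 16.1 CPM in Parental cells. Eed went from 212 ± 58.3 to 54.8 ± 16.6 CPM in Eed fl/fl cells (log2 fold change -1.95, adjusted p = 0.0766, edgeR). Ring1, the gene deleted in the Parental line, was at 1.28 to 3.87 CPM on average in the 12 libraries. In Eed fl/fl cells, where it is intact, it was also low, at 5.88 ± 1.90 CPM in -OHT and 6.46 ± 2.33 CPM in +OHT. The ESC markers Pou5f1, Nanog and the other 16 of a list of 18 all had a mean of at least 1 CPM in every group.

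Trh was among the most abundant transcripts of untreated cells. In Parental -OHT it had 1672 and 2073 CPM, and in Parental +OHT 87.6 and 83.9 CPM. The lowest untreated library was 19.1-fold above the highest treated one. The log2 fold change was -4.45 (SE 0.25), which leaves 4.58% of the untreated level. Per length, Trh ranked 12 from the top of 18154 genes tested before treatment (1353 ± 205 RPKM) and 969 after it (62.0 ± 1.85 RPKM). In bulk RNA, fewer cells that express a gene and less RNA per cell cannot be told apart.

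In RING1B I53S cells, Trh had 1043 and 1532 CPM in -OHT and 88.5 and 114 CPM in +OHT. The libraries of the treatments again lay far apart, by 9.12-fold at the closest. The log2 fold change was -3.66 (SE 0.24), or 7.89% of the untreated level. The effect differed from that in Parental cells by 0.78 on the log2 scale (SE 0.31), given without a test. After OHT the lines were close, at 85.8 ± 2.57 CPM in Parental and 101 ± 18.3 CPM in RING1B I53S cells.

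Aoah was a gene of moderate level that came close to the limit of detection. It had 48.2 and 47.3 CPM (593 and 383 counts) in Parental -OHT, and 1.70 and 2.82 CPM (20 and 29 counts) in Parental +OHT. The log2 fold change was -4.41 (SE 0.28), or 4.72% of the untreated level, with no overlap. In RING1B I53S cells it had 35.2 and 41.1 CPM in -OHT and 2.30 and 1.80 CPM (23 and 21 counts) in +OHT, a log2 fold change of -4.21 (SE 0.28), or 5.38% of the untreated level. The effects in the lines differed by 0.19 (SE 0.41). Per length, Aoah was 8.06 ± 0.11 RPKM in Parental -OHT, against a median of 3.14 over all genes tested, and 0.38 ± 0.13 RPKM in Parental +OHT.

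Among the genes called lower (adjusted p under 0.05 and a log2 fold change of at least 1.5 in size), Trh and Aoah ranked 10 and 11 of 333 by fold change in Parental cells. They ranked 12 and 7 of 188 in RING1B I53S cells. Such calls made up 1.83% and 1.04% of the genes tested. Nothing is read from the share here, since the genes were chosen for these contrasts. By adjusted p alone, 34.3% of genes passed in Parental, 26.7% in RING1B I53S, 2.21% in RING1B WT and 0.00795% in Eed fl/fl cells, with 12.4%, 8.37%, 0.308% and 0% lower. At an unadjusted p under 0.05 the shares were 43.5%, 37.7%, 15.8% and 5.45%.

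**Figure D1:**
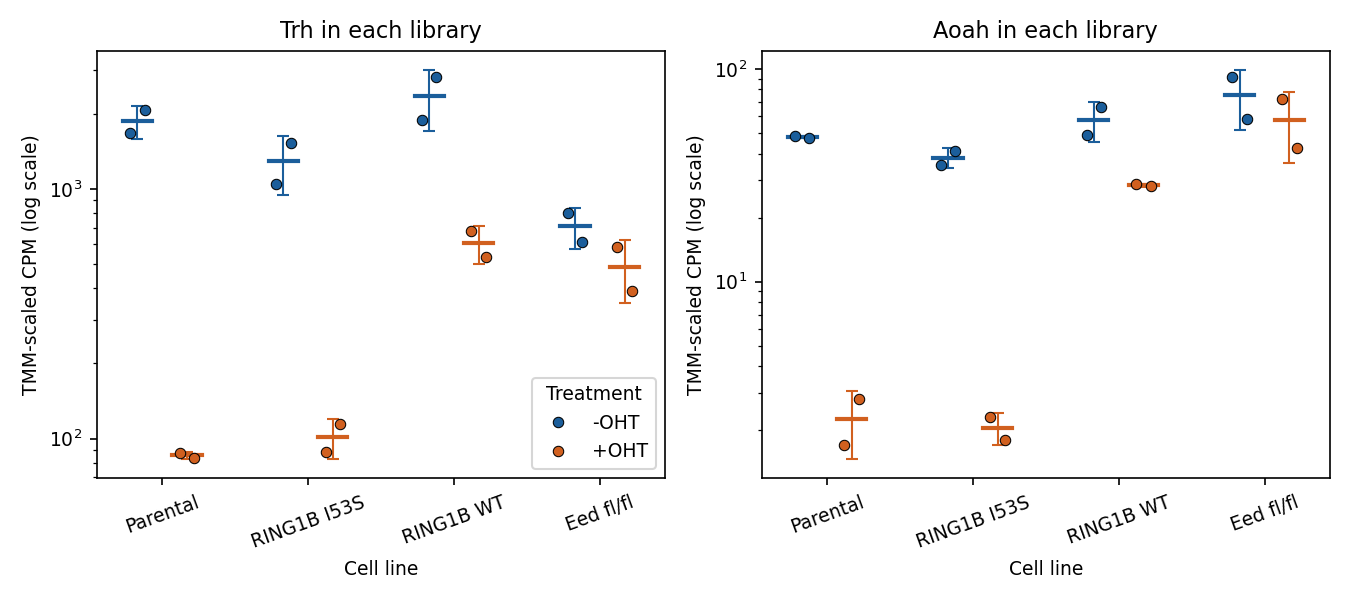
TMM-scaled CPM (log scale) of Trh (left) and Aoah (right) in every RNA-seq library of the 4 cell lines, with points for the 2 libraries of a group, a line at their mean and bars for the SD. In Parental and RING1B I53S cells the +OHT points of Trh lie between 83.9 and 114 CPM and those of Aoah between 1.70 and 2.82 CPM, while in RING1B WT cells Trh stays at 533 CPM or above and Aoah at 28.1 CPM or above.

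The RING1B WT line asks how much of each effect remains when a functional RING1B is supplied. Trh had 1893 and 2800 CPM in RING1B WT -OHT and 678 and 533 CPM in +OHT, so that every treated library lay below every untreated one. Trh fell by 1.95 on the log2 scale (SE 0.22, adjusted p = 0.00052, edgeR's quasi-likelihood test), to 25.8% of the untreated level. It was 1 of 7 genes called lower, 0.0386% of the 18154 tested, and ranked 2 among them by fold change. The effect was 2.49 log2 units smaller in size than in Parental cells (SE 0.31, no test). Trh after OHT was at 605 ± 103 CPM in RING1B WT cells, against 85.8 ± 2.57 CPM in Parental cells.

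Aoah had 48.8 and 66.0 CPM in RING1B WT -OHT and 28.7 and 28.1 CPM in +OHT. The groups did not overlap, and the log2 fold change was -1.01 (SE 0.23), or 49.5% of the untreated level. The adjusted p was 0.0218, but the change was under the fold threshold, so Aoah was not called. That adjusted p was 0.331 without RING1B WT -OHT replicate 2, 0.237 without +OHT replicate 2 and 0.102 without +OHT replicate 1. The effect was 3.39 log2 units smaller in size than in Parental cells (SE 0.36, no test).

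The Eed fl/fl line asks the same of a loss of PRC2. Trh had 803 and 614 CPM in Eed fl/fl -OHT and 585 and 389 CPM in +OHT, a log2 fold change of -0.54 (SE 0.31, adjusted p = 0.833, edgeR). The groups lay side by side without overlap, the lowest untreated library being 1.05-fold above the highest treated one. Aoah had 91.7 and 58.4 CPM in -OHT and 72.1 and 42.3 CPM in +OHT, which overlap (log2 fold change -0.39, SE 0.31, adjusted p = 0.849). Neither gene was called. No gene of the 25170 tested was called lower in this line (0%), 2 were called higher, and 1372 had an unadjusted p under 0.05. DESeq2 called 13 lower and 25 higher, with adjusted p = 0.9996 for Trh and for Aoah. In each same-numbered pair of libraries both genes were lower in +OHT, although the labels do not say that the numbers pair the samples.

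**Figure D2:**
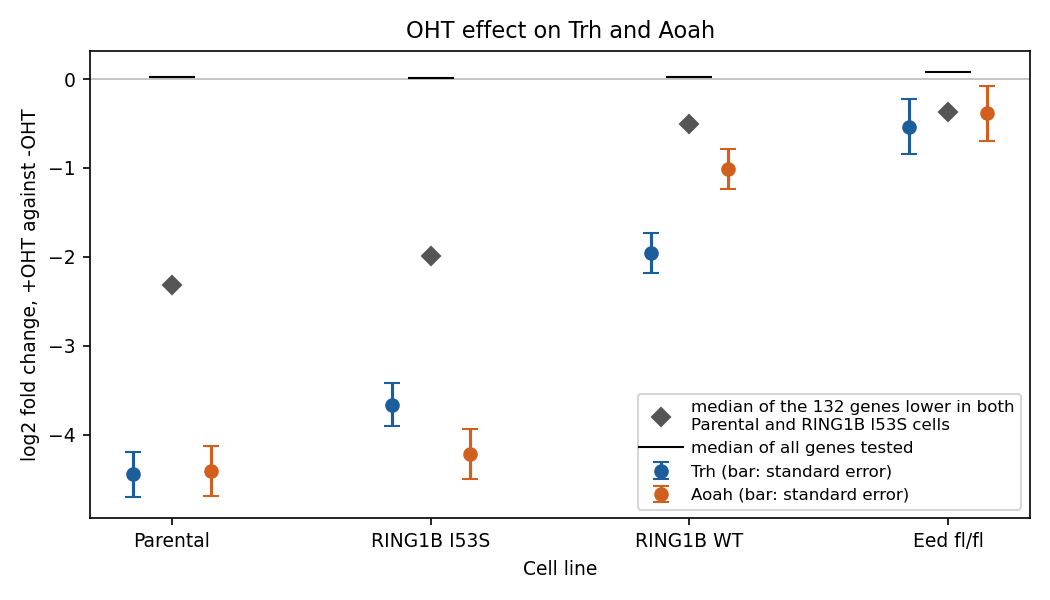
log2 fold change of +OHT against -OHT for Trh and Aoah in the 4 lines, with standard errors, beside the median of the 132 genes called lower in both Parental and RING1B I53S cells and the median of all genes tested. Trh goes from -4.45 in Parental to -0.54 in Eed fl/fl cells and Aoah from -4.41 to -0.39, while the median of all genes stays between 0.01 and 0.08.

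Ordered by level, Trh was highest in RING1B WT -OHT (2346 ± 641 CPM), then Parental -OHT (1872 ± 284), RING1B I53S -OHT (1288 ± 346), Eed fl/fl -OHT (708 ± 134), RING1B WT +OHT (605 ± 103), Eed fl/fl +OHT (487 ± 139), RING1B I53S +OHT (101 ± 18.3) and Parental +OHT (85.8 ± 2.57). The 1st overlaps the 2nd of these groups in its libraries, and the 4th to the 6th overlap as neighbours. A 4.8-fold gap separates Eed fl/fl +OHT from RING1B I53S +OHT. For Aoah the order began with Eed fl/fl -OHT (75.02 ± 23.6 CPM), RING1B WT -OHT (57.4 ± 12.2), Eed fl/fl +OHT (57.2 ± 21.02) and Parental -OHT (47.8 ± 0.67), each of which overlaps the next. RING1B I53S -OHT (38.2 ± 4.14) and RING1B WT +OHT (28.4 ± 0.45) followed without overlap, and a 12.6-fold gap separates the latter from Parental +OHT (2.26 ± 0.79) and RING1B I53S +OHT (2.05 ± 0.35), which overlap. Eed fl/fl levels were scaled apart from the others.

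In Parental and RING1B I53S cells together, 132 genes were called lower in both lines, with median log2 fold changes of -2.32 and -1.99. In RING1B WT cells their median was -0.51, and 121 of the 132 had a negative value. Over all genes tested the median there was 0.02, with quartiles of -0.23 and 0.46. Trh was the only gene of the 132 that was also called lower in RING1B WT cells. By fold change in RING1B WT cells, Trh ranked 2 and Aoah 20 of the 132. In Eed fl/fl cells 128 of the 132 were tested, with a median of -0.37, against 0.08 over all genes tested, and none called by edgeR.

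The genes with the pattern most like that of Trh over the 12 libraries, by Pearson correlation of log2 CPM, were Pym1, Msrb2, Nr0b1, Ing5 and Akap8, with r from 0.989 to 0.991. Pym1 acts in recycling of the exon junction complex, Msrb2 is a mitochondrial methionine sulfoxide reductase, Nr0b1 is an orphan nuclear receptor of the ESC network, Ing5 reads histone methylation and Akap8 anchors protein kinase A in the nucleus. Their log2 fold changes were smaller in size than those of Trh, from -2.72 (Nr0b1) to -1.17 (Akap8) in Parental cells and from -1.35 to -0.36 in RING1B WT cells. For Aoah they were Ifitm1, Manba, Pecam1, 1700061G19Rik and 2610037D02Rik, with r from 0.986 to 0.990. Ifitm1 is an interferon-induced membrane protein, Manba a lysosomal mannosidase and Pecam1 an adhesion molecule. Manba had the lowest values of the 5, -3.33 in Parental, -3.01 in RING1B I53S and -0.55 in RING1B WT cells. Trh and Aoah correlated with each other at r = 0.977, rank 42 of 18153 genes for Trh and rank 20 for Aoah. The 12 points share the treatment, so these correlations are descriptions.

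Markers of the ESC state moved along with Trh and Aoah. Of 18 markers tested, 7 fell, Tdh, Klf2, Zfp42, Sox2 and Prdm14 among them, and 1 rose (Dppa3) in Parental cells, where 1.83% of all genes fell and 15.1% rose. In RING1B I53S cells 5 fell, against 1.04% of all genes. Their median log2 fold change was -1.21 in Parental, -0.87 in RING1B I53S, -0.28 in RING1B WT and -0.23 in Eed fl/fl cells, with none called in the latter 2 lines by edgeR or DESeq2 (5 and 2 at an unadjusted p under 0.05). Summed over the list, the level was 8010 to 8960 CPM in Parental -OHT and 4520 to 4620 in +OHT, 7570 to 8820 and 4750 to 4800 in RING1B I53S, 8360 to 9600 and 7570 to 7690 in RING1B WT, and 7220 to 8760 and 5880 to 7220 in Eed fl/fl cells. Nr0b1 fell from 243 ± 19.1 to 36.7 ± 1.83 CPM in Parental cells, and in RING1B WT cells it had 266 ± 2.30 and 104 ± 29.3 CPM. The lowest value of the 18 was that of Nr0b1, at -2.72 in Parental, -2.29 in RING1B I53S, -1.35 in RING1B WT and -0.95 in Eed fl/fl cells. It was thus smaller in size than the values of Trh and Aoah in Parental and RING1B I53S cells, lay between them in RING1B WT cells and was larger in size than both in Eed fl/fl cells. The part of the ESC state in the 2 genes' levels was not tested.

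Fibroblast and feeder markers summed to 23.5 to 24.0 CPM in Parental -OHT and 66.0 to 68.7 in +OHT, to 24.6 to 25.4 and 59.4 to 71.6 in RING1B I53S, to 16.3 to 21.9 and 32.9 to 34.2 in RING1B WT, and to 32.5 to 45.6 and 47.1 to 61.8 in Eed fl/fl cells. Of the 8, 4 were tested in the 12 libraries, and Col1a2 and Col1a1 rose in Parental cells, Col1a2 in RING1B I53S cells, and none was called in RING1B WT or Eed fl/fl cells by edgeR or DESeq2 (4 and 0 at an unadjusted p under 0.05). Over all genes, 15.1% rose in Parental and 12.8% in RING1B I53S cells. The part of fibroblast or feeder cells in the levels of Trh and Aoah was not tested. Lum, Dcn, Postn and Col3a1 were too low to test in these libraries.

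The other genes of the thyrotropin-releasing hormone pathway that were called lay higher after OHT, where Trh was lower. The list holds 23 genes, the receptors, enzymes that process or destroy the peptide, and its targets in the pituitary and thyroid. The receptor Trhr had 0 to 1 counts in the 12 libraries and 4 to 10 in the 4 Eed fl/fl libraries. Of 16 genes tested, 6 rose and 0 fell in Parental cells, where 15.1% of all genes rose, and 7 rose and 0 fell in RING1B I53S cells, where 12.8% rose. The median log2 fold change was 1.24 and 1.30, against 0.03 and 0.01 over all genes tested. In RING1B WT cells 1 rose (Dio3), against 1.34% of all genes, and in Eed fl/fl cells none of 20 was called by edgeR or DESeq2, with 2 at an unadjusted p under 0.05 and 0.00795% of all genes called higher.

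Trhde, the ectoenzyme that degrades the peptide, had 0 counts in all 6 untreated libraries of these lines and 12 to 16 in Parental +OHT and 24 to 38 in RING1B I53S +OHT. Taken against 3 counts over the untreated group, it was at least 8.60-fold higher in Parental and at least 22.1-fold higher in RING1B I53S cells. Dio3, the deiodinase that inactivates thyroid hormone, rose from 0.70 ± 0.41 to 11.9 ± 1.65 CPM in Parental cells, from 0.81 ± 0.06 to 11.4 ± 3.55 in RING1B I53S cells and from 0.43 ± 0.16 to 2.58 ± 1.09 in RING1B WT cells. The last call was lost without RING1B WT -OHT replicate 1 or 2 or +OHT replicate 2. Thrb, a thyroid hormone receptor, had 3 counts in all before and 46 after OHT in Parental cells, a ratio of 14.2 (95% exact interval from 4.56 to 71.4, counting error only). Of the processing enzymes, the carboxypeptidase Cpe rose from 1.66 ± 0.97 to 5.10 ± 0.22 CPM and Cpd from 13.4 ± 0.14 to 42.3 ± 0.24 CPM in Parental cells. The proprotein convertase Pcsk5 rose in both lines, and the receptor Tshr and the deiodinase Dio1 in RING1B I53S cells only, which is not a test of a difference between the lines. Without RING1B I53S -OHT replicate 2 the count in that line was 3 in place of 7, and without Eed fl/fl +OHT replicate 1 the count in Eed fl/fl cells was 1 in place of 0. That gene was called lower, Qpct, the cyclase that forms the amino-terminal ring of the peptide, at -1.53 (adjusted p = 0.0223, edgeR) against -1.07 (0.616) with all 4 libraries; it is named after its value was seen.

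Trh was high in Parental -OHT, where some markers of the hypothalamic neurons it is known from were not detected. Of the 8 listed, 3 had 0 counts there and 3 had a mean of at least 1 CPM. Sim1, a transcription factor of the hypothalamic nucleus where Trh neurons lie, had 0 counts in Parental -OHT, where Trh had 16797 and 20554. Sim1 was at 55 and 56 counts in Parental +OHT, at least 34.4-fold higher, while Trh was lower. Of 6 markers tested, Sim1, Avp and Oxt rose in Parental and in RING1B I53S cells, and Tubb3 fell in Parental cells, where 15.1% of all genes rose and 1.83% fell (12.8% rose in RING1B I53S cells). None was called in RING1B WT or in Eed fl/fl cells by either tool, with 2 and 0 at an unadjusted p under 0.05. The list summed to 65.5 to 94.3 CPM in Parental -OHT and 36.5 to 39.6 in +OHT, most of it from Tubb3 (76.5 ± 19.2 and 22.5 ± 3.87 CPM). In Eed fl/fl -OHT, where Trh was at 708 CPM, the list summed to 136 to 177 CPM and 0 of the 8 markers had 0 counts.

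In the 12 libraries of the Parental line and its rescue clones, Aoah was likewise present with most defining markers of macrophages and dendritic cells at or near 0. Of 8 markers of those cells, Adgre1 had 0 counts in every one of the 12 libraries, Tyrobp 0 to 3, Ptprc 0 to 4, Csf1r 0 to 5, Itgax 0 to 2, Mpeg1 0 to 3 and Itgam 2 to 34. Cd68, which other cells also make in their lysosomes, had 150 to 438. The list summed to between 18.9 and 35.8 CPM in the 12 libraries, with 18.9 to 22.8 in Parental -OHT and 20.7 to 32.1 in +OHT, and none of the 2 tested was called in any line by edgeR or DESeq2 (0, 1 and 0 at an unadjusted p under 0.05 in Parental, RING1B I53S and RING1B WT cells). The Eed fl/fl libraries held more counts of several of these markers, with 19 to 28 for Adgre1 and 79 to 124 for Ptprc. There the list summed to 59.6 to 68.9 CPM in -OHT and 66.9 to 72.3 in +OHT. In both of these groups 7 of the 8 markers had a mean of at least 1 CPM.

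Of 21 genes of lipopolysaccharide sensing and breakdown, 16 were tested in the 12 libraries, and 2 rose and 0 fell in Parental and in RING1B I53S cells. That share is near the 15.1% and 12.8% of all genes that rose, and with 1.83% and 1.04% of all genes called lower a count of 0 among 16 says nothing about the list. The genes that rose were Lbp, which carries lipopolysaccharide in plasma, and Cd14, which hands it to the Toll-like receptor complex. Lbp went from 2.27 ± 0.94 to 10.8 ± 1.17 CPM and Cd14 from 0.51 ± 0.20 to 3.25 ± 1.59 CPM in Parental cells. The median log2 fold change of the list was 0.46 in Parental, 0.44 in RING1B I53S, 0.11 in RING1B WT and 0.16 in Eed fl/fl cells. None was called in RING1B WT or Eed fl/fl cells by edgeR or DESeq2, with 1 and 0 at an unadjusted p under 0.05. Cd14 or Lbp lost its call, leaving 1, without Parental -OHT replicate 2 or +OHT replicate 2, and in the other line without RING1B I53S -OHT replicate 2 or +OHT replicate 1. Apart from Qpct in the setting above, no gene of either pathway list was called lower in the fits and alternatives where the lists were counted. They were not counted with at least 10 counts in every library or with the 4 libraries of a contrast alone. The lowest value of the lipopolysaccharide list in RING1B I53S cells was -1.94, which was not called.

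**Figure D3:**
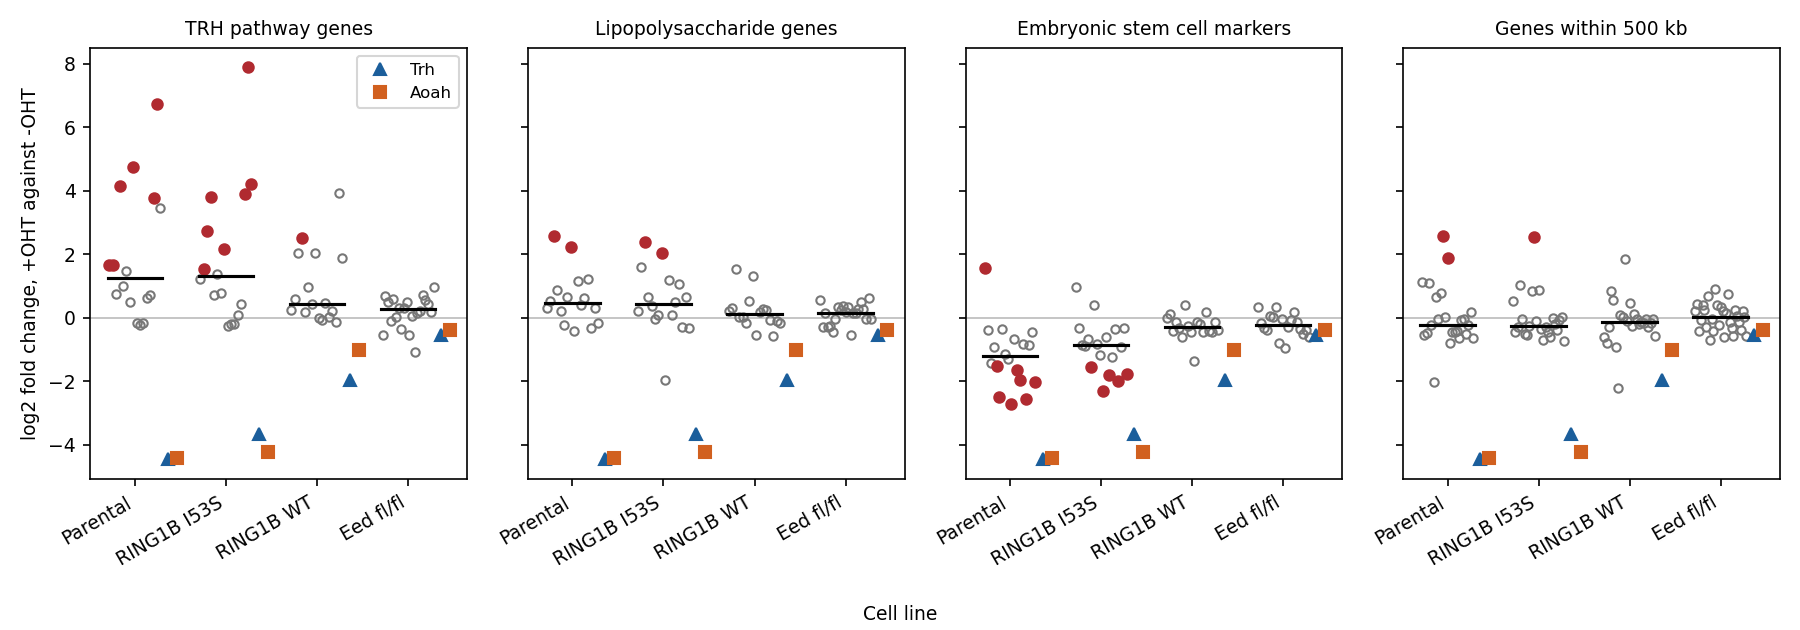
log2 fold change of +OHT against -OHT in each line for the tested genes of the TRH pathway, of lipopolysaccharide sensing and breakdown, of the ESC marker list, and of those within 500 kb of Trh or Aoah. Filled points were called, open points were not, bars are medians, and Trh (triangles) and Aoah (squares) are repeated in each panel. The TRH pathway median is 1.24 in Parental cells and the ESC marker median -1.21, while Trh and Aoah lie at -4.45 and -4.41.

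Few of the genes around Trh and Aoah were expressed enough to test. Of 54 genes with a span within 500 kb, 23 were tested in the 12 libraries, and their median log2 fold change was -0.23 in Parental, -0.25 in RING1B I53S and -0.13 in RING1B WT cells. Grip2, a scaffold of glutamate receptors that lies 414811 bp from Trh, rose from 0.69 ± 0.28 to 4.31 ± 0.92 CPM in Parental and from 0.89 ± 0.04 to 5.23 ± 0.95 CPM in RING1B I53S cells. Nkapl, 430430 bp from Aoah, rose in Parental cells (log2 fold change 1.89, adjusted p = 0.0145, edgeR). Over all genes, 15.1% rose and 1.83% fell in Parental cells and 12.8% and 1.04% in RING1B I53S cells, so that 0 lower among 23 is not a result about the neighbours. No other neighbour was called, none was called in RING1B WT or Eed fl/fl cells by edgeR or DESeq2 (5 and 0 at an unadjusted p under 0.05), and the lowest value in Parental cells was -2.03. The Parental count was 1 without Parental -OHT replicate 1 or either +OHT replicate.

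Of the 9 neighbours within 200 kb that were tested, none was called. Rbsn, an endosomal tethering protein 27136 bp from Trh, was at -0.42 in Parental, -0.43 in RING1B I53S and -0.18 in RING1B WT cells. Mrps25, a mitochondrial ribosomal protein, was at 0.03, -0.10 and -0.11. Nr2c2, an orphan nuclear receptor 67767 bp away, was at -0.78 in Parental cells (adjusted p = 0.0266, under the fold threshold), and Prickle2, a planar polarity gene on the other side, at -0.44. Gm44249, an unconfirmed transcript 95768 bp away, was at 0.64, -0.53 and -2.20 in Parental, RING1B I53S and RING1B WT cells, from 1 to 15 counts a library (adjusted p = 0.174 in RING1B WT, edgeR). Fgd5, a guanine nucleotide exchange factor 166057 bp away, went from 13.7 ± 0.67 to 29.0 ± 1.27 CPM in Parental cells (1.08, adjusted p = 0.00262, under the fold threshold) and was at 1.04 and 0.83 in the others. Beside Aoah, the pseudogene Gm7614 was at -0.03, Trim27 at -0.07 and Elmo1, an engulfment gene, at -0.47 in Parental cells. Gm47727 and Gm25605 lie within the span of Aoah and were too low to test. Reads were counted without strand, and those that fall in both genes could not be assigned by strand.

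Few peak lists held a peak at Trh or Aoah. In 67 of the 70 ChIP-seq lists neither Trh nor Aoah, extended by 2.5 kb to either side, held a peak, and none of the 4 inputs did. None of the 4 RING1B lists had one. The nearest RING1B peak to Trh lay 183461 bp away, in RING1B I53S +OHT, and in Parental -OHT it lay 262244 bp away, over the start of Fgd5. For Aoah the nearest RING1B peak was 431427 bp away, in Parental -OHT, at Nkapl. By comparison, 19.8% of the promoters of genes tested (2.5 kb to either side of a start site) held a RING1B peak and 25.9% an H2AK119ub1 peak in Parental -OHT. Over the 70 lists the share of promoters with a peak ran from 0.022% (AEBP2 in Parental +OHT) to 58.5% (MTF2 in Parental -OHT). Most promoters thus held no peak in most lists. The number of lists in which other genes held a peak was not counted, so nothing is read from the 67. H2AK119ub1 peaks were still listed at 24.2% of promoters in Parental +OHT and at 13.4% in RING1B I53S +OHT. The paper reports loss of this mark after OHT in both of these lines. A peak in these lists thus does not measure how much of the mark was present. MTF2 and JARID2 had 2 libraries each in RING1B WT and in RING1B I53S +OHT at 72 h, and every other antibody and condition had 1. The conditions with a peak at either gene had 1 library each, so those peaks have no replicate check.

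Trh held H2AK119ub1 peaks only in RING1B WT +OHT, 1 of 4 lists for this mark. The larger, chr6:92243580-92246140, is 2561 bp long, runs from -1490 to 1070 bp relative to the start site and covers exons 1 and 2, with a score (-log10 p) of 13.5. It contains the whole CpG-rich stretch printed above. The smaller, chr6:92242614-92243169, lies at the start of exon 3 with a score of 12.71. Their scores are above 39.2% and 32.7% of the 15830 peaks of that list, in which 31.1% of promoters held a peak. In Parental -OHT, where Trh RNA was at 1872 CPM, the nearest H2AK119ub1 peak was 15242 bp away.

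Trh also held an MTF2 peak in Parental -OHT, chr6:92244566-92245021, from -371 to 84 bp relative to the start site, with a score of 16.5. MTF2 is a PRC2 accessory protein that binds unmethylated CpG-rich DNA. That list is the longest of the 70, with 24485 peaks at 58.5% of promoters, and the peak's score is above 32% of them. None of the other 10 MTF2 lists had a peak at Trh. Aoah held 1 peak, H3K27me3 in RING1B I53S +OHT at chr13:20795297-20795909, in the 1st intron and 1184 to 1796 bp after the start site, with a score of 10.99. That list has 18909 peaks and 18.2% of promoters with one, and the other 7 H3K27me3 lists had none at Aoah. No peak at either gene reached a score of 20, and with the promoter taken as 1 kb to either side Aoah had none.

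**Figure D4:**
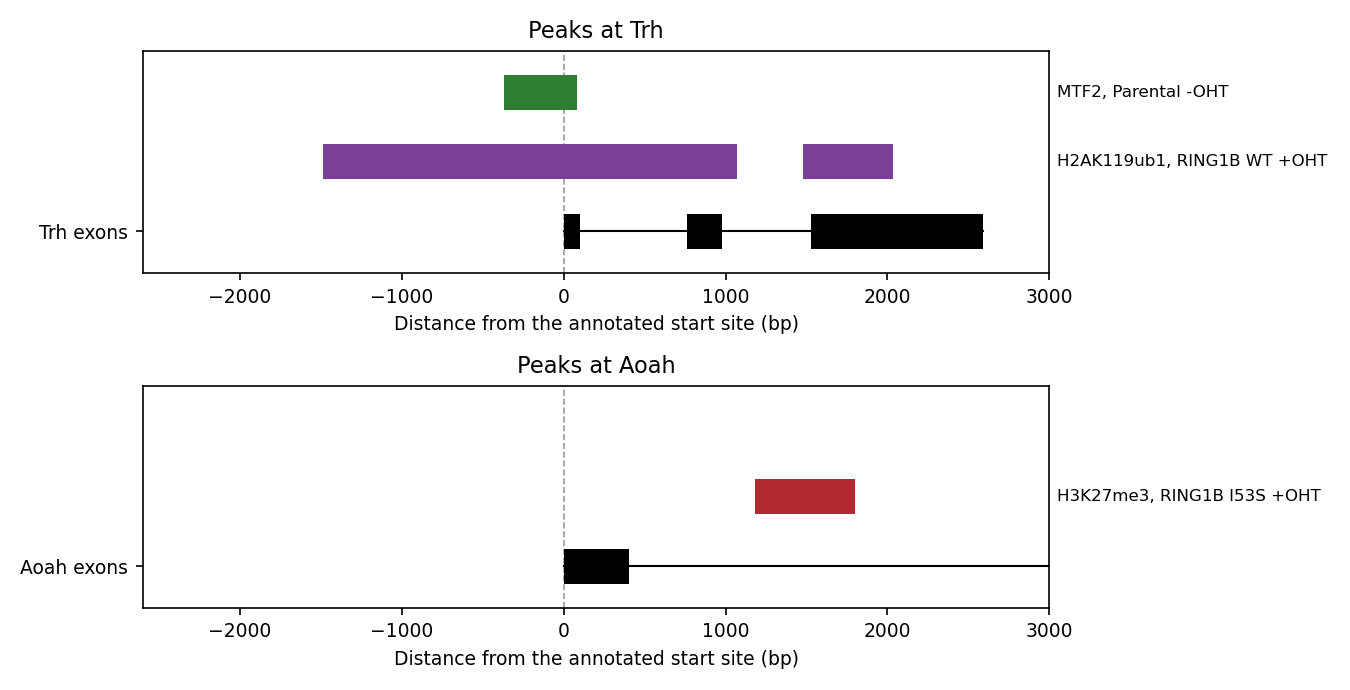
Every peak within 2.5 kb of Trh (top) and around the start of Aoah (bottom), by distance from the annotated start site in bp, with exons in black. The larger H2AK119ub1 peak of RING1B WT +OHT runs from -1490 to 1070 bp and the MTF2 peak of Parental -OHT from -371 to 84 bp at Trh, and the H3K27me3 peak of RING1B I53S +OHT lies from 1184 to 1796 bp at Aoah.

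The genes that share the direction of Trh and Aoah in both lines held RING1B and H2AK119ub1 peaks less often than all genes tested. Of the 132 genes called lower in both Parental and RING1B I53S cells, 7 (5.30%) had a RING1B peak and 11 (8.33%) an H2AK119ub1 peak at the promoter in Parental -OHT, against 19.8% and 25.9% of all genes tested. In RING1B WT +OHT, 17 of them (12.9%), Trh included, had an H2AK119ub1 peak, against 31.1%. In Parental +OHT 19 of the 132 (14.4%) had an H2AK119ub1 peak, against 24.2% of all genes tested. In RING1B I53S +OHT it was 11 (8.33%), against 13.4%. The lower share was not particular to these 2 antibodies. In Parental -OHT it was 23.5% against 58.5% for MTF2, 9.09% against 32.1% for SUZ12, 6.82% against 28.7% for H3K27me3 and 12.1% against 31.6% for PCGF6. All genes tested were not matched to the 132 by expression level. None of the 5 genes most like Trh or the 5 most like Aoah had a RING1B or an H2AK119ub1 peak in Parental -OHT. With 19.8% and 25.9% of all genes holding one, a count of 0 among 5 says nothing about them. Of the 16 TRH pathway genes tested, 9 (56.2%) had a RING1B peak in Parental -OHT. Of the 8 that rose in Parental or RING1B I53S cells, 7 had one, Dio3, Trhde and Pcsk5 among them. Those 8 were picked by their rise, and the share over all genes that rose is not given here. Nkapl had both a RING1B and an H2AK119ub1 peak at its promoter in Parental -OHT, and Grip2 had the H2AK119ub1 peak alone.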

How the data were processed

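RNA counts per gene were made by the authors, who aligned SMART-seq2 reads to mm10 (GRCm38) with STAR 2.7 keeping unique alignments, removed duplicates, counted exons without strand with featureCounts on GENCODE M21 gene names, and deposited raw counts for 16 libraries. Peak lists hold -log10 p scores that the authors computed with MACS2 2.1.1 per library on Bowtie 1.2.2 alignments; the lowest deposited score is 10. Tables of normalized counts and 7 tables of the authors' comparisons (log2 fold changes and p-values) were not used.

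Counts were fitted with edgeR 4.0.16 (quasi-likelihood test, TMM, filterByExpr, Benjamini-Hochberg adjustment over all genes tested). The 12 libraries of the Parental line and its rescue clones shared 1 fit (18154 genes), and the 4 Eed fl/fl libraries another (25170 genes). Genes were called at an adjusted p under 0.05 and a log2 fold change of 1.5 or more in size. The labels do not say whether replicates were separate cultures, so p-values measure the spread between these libraries, which may be technical. No libraries were duplicates. The fits were tested on simulated counts. RPKM used the union of annotated exons.

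Trh, Aoah and the gene lists were chosen with earlier results of these data known. The text names Trh, Aoah, the targeted genes, listed genes that were called, neighbours within 500 kb, and for each of Trh and Aoah the 5 genes of highest correlation (prior count 2); other genes are named only with their levels as markers. A peak counted when at least 1 bp overlapped. Alternatives were DESeq2 1.42.0, RLE scaling, other filters, a replicate block, leaving out each library, other thresholds and other windows. Library depth sets precision, and intervals cover counting error only. Promoter sequences came from RefSeq (GRCm38.p6).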

Additional observations from a re-analysis of the deposited data

Results flagged for a closer look

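The OHT effects of 50 genes were compared between lines in 1 model, namely the list genes called in any line, the tested neighbours and the targeted genes. Of these, 8 had an effect in RING1B WT cells that differed from that in Parental cells (interaction term, adjusted p under 0.05, edgeR), and 0 did between RING1B I53S and Parental cells. Over all 18154 genes tested, 376 (2.07%) and 0 passed the same tests, with 2586 and 488 at an unadjusted p under 0.05. Many of the 50 were named for a call in lines that enter the difference, so the counts are not compared further. The differences on the log2 scale, RING1B WT minus Parental, were -1.59 for Dppa3 (adjusted p = 0.00219), -1.42 for Cpd (0.0251), 1.38 for Nr0b1 (0.0229), 1.46 for Prdm14 (0.00998), 1.53 for Sox2 (0.0145), 1.66 for Zfp42 (0.00374), 1.89 for Klf2 (0.00632) and 2.13 for Tdh (5.45e-05). Of these 8 genes, 7 are ESC markers and Cpd is a carboxypeptidase. Every one was nearer to 0 in RING1B WT than in Parental cells, where Tdh was at -2.56 and Dppa3 at 1.57. Trh and Aoah were left out of this comparison because they were chosen on the Parental libraries.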

How the results depend on the processing

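Of 318 alternative values for 24 results, 295 stayed close to the value reported, meaning the same call for Trh and Aoah where they were tested, a move under 1 SD of the replicates where they were not, and a count within 1.5 times. None turned the sign of Trh or Aoah in any line. The call needs adjusted p and fold together, so that Aoah in RING1B WT cells was not called in any alternative, although its adjusted p ranged from 0.00252 to 0.331. By DESeq2, RLE scaling, other filters, the replicate block and the 4 libraries alone, Trh in RING1B WT cells was -1.98 to -1.91 and stayed called, and Aoah was -1.03 to -0.97 and not called. Leaving out 1 library, Trh was -2.21 to -1.65 in RING1B WT, -0.90 to -0.28 in Eed fl/fl, -4.62 to -4.32 in Parental and -3.92 to -3.37 in RING1B I53S cells. Aoah was -1.22 to -0.78, -0.86 to -0.03, -4.80 to -4.07 and -4.39 to -4.06 in the same order. With all libraries kept, the counts of TRH pathway genes ranged from 6 to 8 in Parental and from 5 to 9 in RING1B I53S cells. They stayed at 1 in RING1B WT and at 0 in Eed fl/fl cells. Those of lipopolysaccharide genes ranged from 2 to 4 in Parental and from 2 to 5 in RING1B I53S cells. Those of neighbours ranged from 0 to 7 in Parental cells. The upper ends are by adjusted p alone.

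By adjusted p alone, 4 lipopolysaccharide genes in Parental and 5 in RING1B I53S cells, and 7 neighbours (3 lower) and 5 (2 lower), were past the threshold. With neighbours within 200 kb, 0 were called in either line. With peaks scored at least 20, 0 libraries had a peak at Trh and 0 at Aoah, and with the promoter at 1 kb, 0 had one at Aoah.

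The labels give the replicates a shared number and no shared source, and 2 pairs a line are too few to establish pairing from the data. The paper lists 2 Eed fl/fl clones among its cell lines. The library labels name no clone, so the clone behind each Eed fl/fl library is not known. With the replicate block, Trh in Eed fl/fl cells was -0.55 (adjusted p = 8.04e-05, under the fold threshold) and Aoah -0.40 (0.0659), and calls over all genes in that line went from 2 to 161. The replicate differences of treated and untreated libraries correlated at 0.59 there and at 0.10 to 0.22 in the other lines. The block changed no other call of Trh or Aoah. Eed fl/fl calls were 38 by DESeq2, 6 by RLE, 21 with at least 10 counts in every library and 1 with no filter. RING1B WT calls went from 251 to 483 with no filter, 152 in its 4 libraries alone and 83 with at least 10 counts in every library, where fewer genes are tested, and genes called lower from 7 to 17 with no filter. That minimum took Parental calls from 3081 to 1009 and RING1B I53S calls from 2511 to 720. Scaling moved the median of all genes by under 0.1. With 20 to 29 counts of Aoah after OHT in Parental cells, depth limits how far below that level a change could be seen.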
